A study of Mus musculus with 16 samples.

Results

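The genes that make milk proteins and that drive milk fat secretion were followed across 4 sorted mammary epithelial populations in the presence and absence of the translational regulator Cpeb2. The set holds 10 genes: the caseins Csn1s1, Csn1s2a, Csn2 and Csn3, the whey proteins Wap, Lalba and Glycam1, and the milk fat globule genes Btn1a1, Xdh and Mfge8. They were found by the gene symbol annotated to each probe set, and 9 of the 10 were measured, on 17 of 45141 probe sets; Xdh was not analysed here. Genes with several probe sets were read on the brightest one, by its mean over the 16 arrays, a rule applied alike to all 17097 genes. Levels are log2 expression values, so a difference of 1 is a 2-fold change, and levels of different probe sets were not compared with each other.

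RNA came from 4 female mice aged 10 weeks, of mixed C57BL/6J and 129 background, which had received no specific treatment; the labels mention neither pregnancy nor lactation. The genotype was Sox2-Cre +/+ with Cpeb2 -/- in 2 mice (knockout) and Sox2-Cre +/+ with Cpeb2 +/+ in the other 2 (wild type), so every mouse carried the Cre and no group without it was compared. Sox2-Cre acts in the epiblast, so the deletion is not limited to the mammary epithelium. From each mouse, myoepithelial cells (Myo, low in Epcam and high in CD49f) were sorted apart from luminal cells, and luminal cells were split into non-clonogenic luminal cells (NCL, Sca1+CD49b-), ductal progenitors (DP, Sca1+CD49b+) and alveolar progenitors (AP, Sca1-CD49b+). That gave 2 arrays for each of 8 groups, 1 per mouse and population. Mouse 1 of each genotype came from the same parents, and mouse 2 of each genotype from another pair of parents.

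Milk is made by luminal alveolar cells. Caseins are phosphoproteins that assemble into micelles in the secretory pathway, Csn3 (kappa-casein) coating and stabilising the micelle that the calcium-binding caseins form. Wap and Lalba are secreted in the soluble whey; Lalba is the regulatory subunit of lactose synthase. Milk fat leaves the cell as droplets wrapped in apical membrane, a step that needs the membrane protein butyrophilin (Btn1a1) and the enzyme xanthine oxidoreductase (Xdh), and Mfge8 (lactadherin) sits on the globule surface. Transcription of caseins and whey proteins rises in pregnancy and lactation under prolactin, acting through Jak2 and STAT5 together with the glucocorticoid receptor and the luminal factor Elf5.

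Myoepithelial and alveolar markers matched the labels of the populations, while hormone-sensing markers did not separate NCL from DP. The mean of 8 myoepithelial markers lay at 12.0 to 12.23 in Myo and at most 7.09 elsewhere. Alveolar markers (Elf5, Kit, Aldh1a3, Cd14 and Lif) averaged 6.35 to 6.48 in NCL, 8.35 to 9.54 in DP, 10.97 to 11.39 in AP and 6.21 to 6.59 in Myo. The mean of 5 hormone-sensing markers was 10.97 to 11.49 in NCL and 10.80 to 11.49 in DP. Itga2, the gene of the sort antigen CD49b, was higher in DP than in NCL in 4 of 4 mice. That difference was 0.81 (SE 0.17), with a Benjamini-Hochberg adjusted p of 0.0523 in limma, not under 0.05. Cpeb2 itself was lower in both knockout arrays than in both wild-type arrays of each population and fell by 0.92 on average (SE 0.21, adjusted p = 0.0201, limma with Benjamini-Hochberg adjustment). In NCL, DP, AP and Myo it differed by -1.45, -1.08, -0.39 and -0.74 (SE 0.41 each). No single population had an adjusted p under 0.05 (0.0933, 0.113, 0.925 and 0.449, limma). In AP and Myo its values, 4.71 to 6.03, were near the lower quartile given below, in wild type too. It is not known here whether that probe set falls within the deleted sequence. Fibroblast markers stood apart in 1 array, the DP array of wild-type mouse 1, at 8.12 against 6.47 to 6.95 in the other DP arrays. The lower quartile of probe set levels was 5.08 to 5.18 across the arrays, and 23 nonspecific control probe sets averaged 3.43 to 7.71, so a constant level inside that range does not show that a gene was expressed.

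Across the populations, Csn3, Btn1a1 and Mfge8 were highest in alveolar progenitors, and among luminal populations intermediate in DP and lowest in NCL; on the probe sets used, each of these steps passed the test, that is, had an adjusted p under 0.05. Csn1s1 was near the array's lower range outside AP and DP, and Lalba and Csn1s2a gave high values in single arrays. Csn2 was level, between 6.64 and 8.36, on the probe set used and gave high values in single arrays on its dimmer ones. Wap kept between 6.09 and 6.75 throughout, and Glycam1 was higher in 3 of 4 myoepithelial arrays than in any luminal array. Since these are bulk samples, fewer expressing cells and less RNA per cell cannot be told apart.

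**Figure D1:**
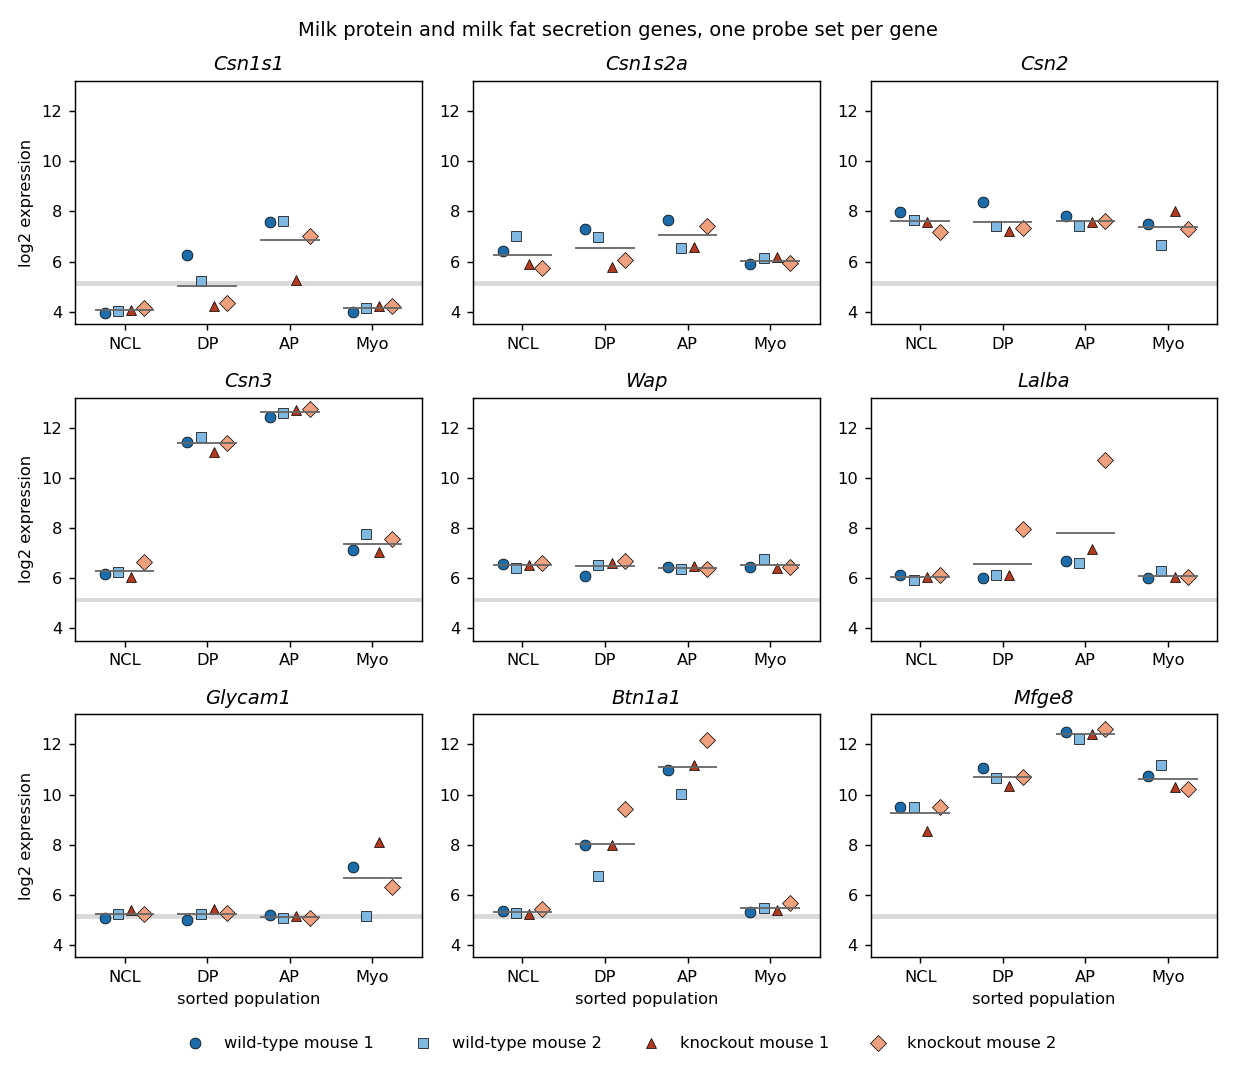
Log2 expression (vertical axis) of the 9 measured genes in the 4 sorted populations (horizontal axis); each point is 1 array, horizontal lines are the means of 4 arrays, and the grey band is the range of the arrays' lower quartiles, 5.08 to 5.18. Csn3, Btn1a1 and Mfge8 step up from NCL to DP to AP, Wap is level, and Lalba is high in the AP and DP arrays of knockout mouse 2.

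The casein genes lie in one cluster on chromosome 5, and the bases just before their transcription starts are shown because STAT factors, through which prolactin acts, bind the palindrome TTCNNNGAA. RefSeq promoters (GRCm38.p6) were at hand for 7 of the genes, and the 250 bases before the start held the motif in 3 of them, Csn1s1, Csn2 and Glycam1, against 7.0% of 32851 mouse promoters; the motif reads the same on both strands. Csn1s1 has it 100 bases before the start (chr5:87665958-87666207, plus strand), Csn2 has it 93 bases before the start (chr5:87699426-87699675, minus strand) and Glycam1 145 bases before (chr15:103565082-103565331, minus strand). Mfge8 (chr7:79149061-79149310, minus strand) is given for contrast, since it has no match, 12 CG dinucleotides where the other 6 have 0 to 2 and the median of all promoters is 6, and a GC content of 65.2%. The promoters of Csn1s2a, Wap and Lalba held no match either, and the C/EBP motif TTGCNNAAT, searched on both strands, was in none of the 7 against 2.1% of all promoters. A match describes the letters of the window and not a bound site. Capitals mark the motif:
Csn1s1: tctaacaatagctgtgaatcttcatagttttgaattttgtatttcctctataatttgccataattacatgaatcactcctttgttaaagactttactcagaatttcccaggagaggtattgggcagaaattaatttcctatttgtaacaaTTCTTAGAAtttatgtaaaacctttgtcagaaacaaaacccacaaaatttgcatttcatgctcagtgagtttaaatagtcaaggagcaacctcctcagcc
Csn2: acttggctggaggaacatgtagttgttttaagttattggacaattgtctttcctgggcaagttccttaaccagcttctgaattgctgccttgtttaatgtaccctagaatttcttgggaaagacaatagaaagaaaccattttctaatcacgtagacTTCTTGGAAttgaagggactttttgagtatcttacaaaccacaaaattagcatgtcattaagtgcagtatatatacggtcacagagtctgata
Glycam1: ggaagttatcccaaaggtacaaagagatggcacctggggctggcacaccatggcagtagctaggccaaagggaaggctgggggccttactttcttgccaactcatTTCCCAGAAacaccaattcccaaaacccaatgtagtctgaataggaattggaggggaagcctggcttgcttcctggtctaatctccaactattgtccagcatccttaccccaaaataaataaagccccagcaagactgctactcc
Mfge8: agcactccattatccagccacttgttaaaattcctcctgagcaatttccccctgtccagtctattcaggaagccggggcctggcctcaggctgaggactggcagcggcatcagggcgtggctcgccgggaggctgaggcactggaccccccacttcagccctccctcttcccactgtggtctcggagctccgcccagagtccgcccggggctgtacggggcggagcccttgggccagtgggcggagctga

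Csn3, the micelle-stabilising casein, ranged from 6.06 to 12.75. Values are given for wild-type mice 1 and 2 and then for knockout mice 1 and 2 throughout. In AP its level was 12.44, 12.57, 12.69 and 12.75. In DP it was 11.45, 11.64, 11.02 and 11.39, in Myo 7.14, 7.78, 7.03 and 7.55, and in NCL 6.16, 6.25, 6.06 and 6.65. The 4 populations thus did not overlap at any step of the order AP, DP, Myo, NCL. Group means were 12.61 ± 0.14, 11.37 ± 0.26, 7.38 ± 0.35 and 6.28 ± 0.26 (SD, n = 4 each). AP exceeded NCL by 6.33 (SE 0.18, 80.6-fold, adjusted p = 5.5e-10, limma), and DP exceeded NCL by 5.10 (SE 0.18, 34.2-fold, adjusted p = 3.55e-08). The NCL levels lay inside the range of the nonspecific control probe sets, so the folds over NCL are not exact sizes. The step from DP to AP was 1.24 (SE 0.18, adjusted p = 0.000278). Myoepithelial cells were above NCL by 1.10 (SE 0.18, adjusted p = 0.000258), so that all neighbours in the order differed on this probe set. The mean of 6 luminal markers was 9.30, 9.88, 9.75 and 9.67 in Myo, against 11.79 to 12.43 in luminal arrays. Like Csn3 in Myo, it was highest in wild-type mouse 2, while their lowest arrays differed. The part of luminal cells in the Myo level of Csn3 was not tested. A second, dimmer probe set of Csn3 ranged from 4.04 to 5.25. It rose from NCL to AP by 0.97 (SE 0.05, adjusted p = 3.88e-08, limma). Its DP minus NCL difference of 0.18 (SE 0.05, adjusted p = 0.228) did not pass. Nor did its Myo minus NCL difference of 0.12 (SE 0.05, adjusted p = 0.0557).

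Csn1s1 (alpha-S1-casein), one of the calcium-binding caseins, was detected mainly in the progenitors. Its level in AP was 7.58, 7.63, 5.25 and 7.02, and in DP 6.26, 5.24, 4.21 and 4.35. In NCL it lay between 3.93 and 4.15 and in Myo between 4.0 and 4.24, below the lower quartile in every array. AP lay wholly above NCL and Myo but overlapped DP, and the knockout arrays were the lower ones in both progenitor populations. AP exceeded NCL by 2.82 (SE 0.29, adjusted p = 1.52e-05, limma) and DP by 1.86 (SE 0.29, adjusted p = 0.000625). No fold is given, since NCL and both knockout DP arrays lay below the lower quartile. DP exceeded NCL in 4 of 4 mice, by 0.97 (SE 0.29), which did not pass (adjusted p = 0.342).

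Csn1s2a (alpha-S2-like casein) moved less and in single arrays. All its values, 5.76 to 7.66, lay inside the range of the nonspecific control probe sets, 3.43 to 7.71. Its level was 7.66, 6.55, 6.56 and 7.43 in AP, 7.31, 6.99, 5.77 and 6.06 in DP, 6.42, 7.0, 5.89 and 5.76 in NCL, and 5.90, 6.12, 6.18 and 5.94 in Myo. AP was wholly above Myo, while AP, DP and NCL overlapped. AP exceeded Myo by 1.01 (SE 0.24, adjusted p = 0.00589, limma) and NCL by 0.78 (SE 0.24, higher in 3 of 4 mice, adjusted p = 0.029). The AP minus NCL call held in 12 of 20 fits that left out 1 mouse or 1 array; without wild-type mouse 1 the difference was 0.36 and without its AP array 0.50, and without knockout mouse 2 it was 0.53 and without its AP array 0.56. It was also lost without knockout mouse 1, at 1.03, and without the NCL array of wild-type mouse 1 or of either knockout mouse, at 0.62, 0.81 and 0.75. Of the 3 other probe sets of Csn1s2a, 1 ranged from 4.24 to 6.11 and was also higher in AP than in NCL, by 0.78 (SE 0.25, adjusted p = 0.0355). The remaining 2 stayed between 3.7 and 4.12 in every array.

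Csn2 (beta-casein), in lactation the major casein of mouse milk, gave different pictures on different probe sets. On its brightest probe set the level was 7.82, 7.41, 7.59 and 7.61 in AP and 7.98, 7.67, 7.58 and 7.19 in NCL. DP held 8.36, 7.40, 7.22 and 7.34, and Myo 7.51, 6.64, 8.01 and 7.28, so that all 4 populations overlapped. AP minus NCL was 0.00 (SE 0.24), with a 95% confidence interval, the kind given throughout, of -0.52 to 0.52. On the second probe set, AP held 8.67, 5.02, 4.72 and 6.85 and DP 6.94, 4.70, 4.81 and 4.70, while NCL and Myo stayed between 4.47 and 4.75. Wild-type mouse 1 and knockout mouse 2 were thus the high AP arrays, 1 of each genotype and with different parents. The third was high in the same 2 AP arrays, at 7.05 and 5.25 against 4.29 and 4.0. AP minus NCL was 1.67 (SE 0.68) on the second and 1.01 (SE 0.45) on the third, and neither passed (adjusted p = 0.0912 and 0.124, limma over all probe sets).

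**Figure D2:**
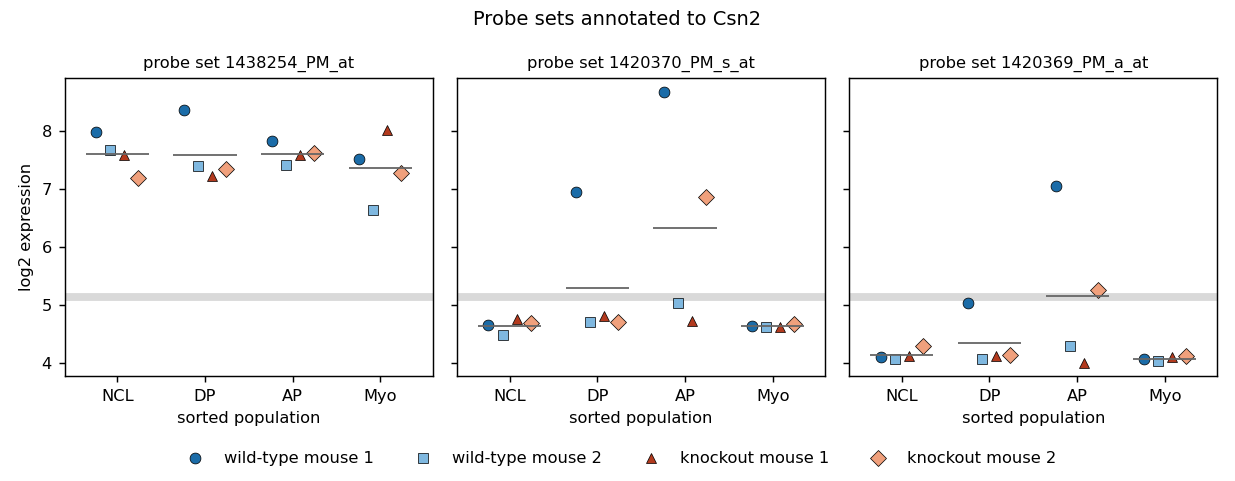
Log2 expression (vertical axis) on the 3 probe sets annotated to Csn2, by sorted population; points are single arrays, lines the means of 4 arrays and the grey band the arrays' lower quartiles. The brightest probe set is level between 6.64 and 8.36, while the other two are high in the AP arrays of wild-type mouse 1 and knockout mouse 2.

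Between Csn1s1 and Csn3 on chromosome 5 lie 3 further measured protein-coding genes, and none had the steps of Csn3. Csn1s2b, another casein, stayed between 5.35 and 5.67 in all 16 arrays. Prr27 lay between 5.10 and 5.52 and Odam, an enamel-associated protein, between 3.94 and 4.23. Outside the cluster, Sult1b1, Sult1d1, Sult1e1, Cabs1, Smr3a and Smr2 had ranges of 5.51 to 5.75, 3.82 to 4.05, 5.07 to 5.46, 4.73 to 5.01, 5.40 to 5.78 and 4.32 to 4.79. The genes around the caseins thus had narrow ranges in these arrays. All of these ranges lay inside that of the nonspecific control probe sets, where expression cannot be told from background signal.

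Of the whey genes, Wap (whey acidic protein, a protease-inhibitor-like milk protein of rodents) did not separate the populations. It lay between 6.09 and 6.75 in all arrays, with means of 6.52 ± 0.08 in NCL, 6.48 ± 0.26 in DP, 6.41 ± 0.06 in AP and 6.51 ± 0.16 in Myo (SD, n = 4). The AP minus NCL difference was -0.11 (SE 0.10), with an interval of -0.34 to 0.11. That level lies inside the range of the nonspecific control probe sets.

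Lalba (alpha-lactalbumin) was highest in a single animal. In AP its level was 6.68, 6.61, 7.17 and 10.71, and in DP 6.01, 6.14, 6.13 and 7.98. NCL and Myo stayed between 5.93 and 6.28. Knockout mouse 2 was the high array in both progenitor populations, and the other 3 mice lay between 6.61 and 7.17 in AP. AP lay wholly above NCL, by 1.74 (SE 0.57, 4 of 4 mice, adjusted p = 0.0365, limma). The call held in 11 of 20 leave-out fits; without the AP array of knockout mouse 2 the difference was 0.87 and did not pass. The call was also lost without either wild-type mouse, any 1 NCL array or either wild-type AP array, at 1.69 to 1.80, and with eBayes without trend, at 1.74; it was kept, at 0.87, without all arrays of knockout mouse 2.

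Glycam1, a mucin-like glycoprotein that is secreted in milk and is also made by the endothelium of lymph node venules, had the opposite distribution. Its level in Myo was 7.10, 5.17, 8.09 and 6.30. In the luminal populations it lay between 5.0 and 5.45, about the lower quartile, so the fold given below is not an exact size. The Myo array of wild-type mouse 2 was inside the luminal range, and the other 3 were above it. Myo exceeded the luminal mean by 1.47 (SE 0.31, 2.76-fold, adjusted p = 0.00195, limma), and the call was lost without knockout mouse 1, at 1.05. Against NCL, DP and AP singly, Myo was higher by 1.43, 1.43 and 1.54 (SE 0.38 each, adjusted p = 0.00883, 0.00968 and 0.00735), and each call was lost without wild-type mouse 1, at 0.90, 0.89 and 1.10, and without knockout mouse 1, at 1.01, 1.02 and 1.12. All 5 endothelial markers also passed as higher in Myo, by a median of 0.78, and their mean level was 6.40 to 7.57 there against 5.57 to 6.26 in luminal arrays. The endothelial mean was 6.53, 6.40, 6.86 and 7.57 in Myo, so that the lowest array, that of wild-type mouse 2, was the same as for Glycam1 and the highest was not. The mean of 8 leukocyte markers was 5.64 to 5.66 in Myo and 5.25 to 5.63 elsewhere; 2 of the 8 passed as higher in Myo, Cd68 by 0.75 (SE 0.18) and Laptm5 by 0.16 (SE 0.06), and Ptprc was at 3.81 to 3.98 in every array. Of 6 fibroblast markers 2 passed as higher in Myo, Dcn by 1.72 (SE 0.25) and Col3a1 by 0.95 (SE 0.35), with a list mean of 6.75 to 7.02 in Myo and 5.70 to 8.12 elsewhere. Of 4 measured fat-cell markers 2 passed as higher in Myo, Fabp4 and Retn. Fabp4 was at 10.12 to 11.48 in Myo and 6.21 to 10.17 in luminal arrays, while Adipoq stayed at 4.11 to 4.39 in all arrays. The part of such cells in the Glycam1 difference was not tested.

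**Figure D3:**
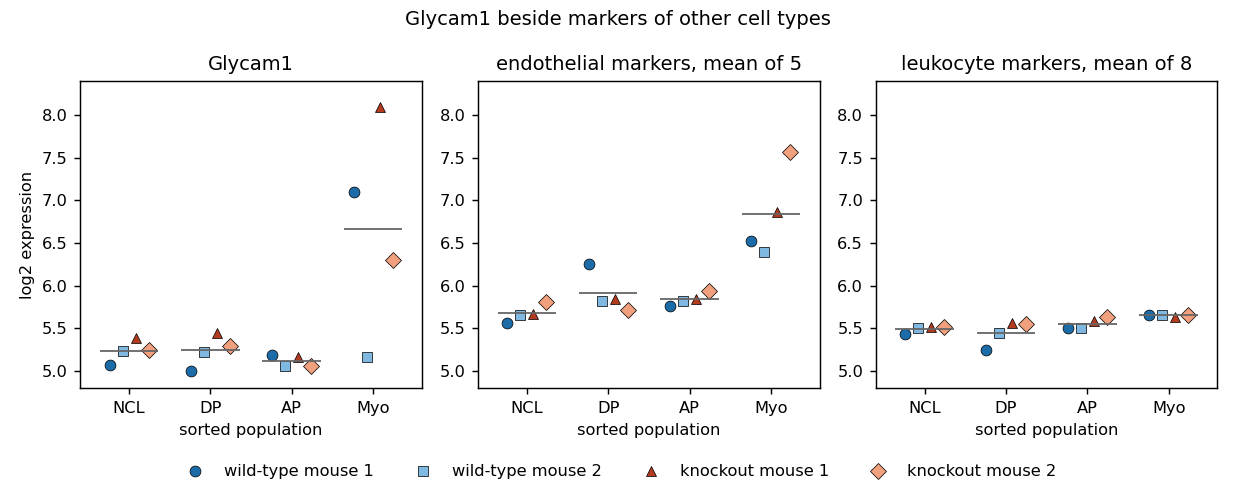
Log2 expression of Glycam1 (left), the mean of 5 endothelial markers (middle) and the mean of 8 leukocyte markers (right) by sorted population; points are single arrays and lines the means of 4 arrays. Glycam1 and the endothelial mean are both higher in Myo; both are lowest there in wild-type mouse 2 (5.17 and 6.40), Glycam1 is highest in knockout mouse 1 (8.09) and the endothelial mean in knockout mouse 2 (7.57).

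Btn1a1 (butyrophilin), which links the lipid droplet to the apical membrane during secretion, rose at each step from NCL to AP. Its level was 10.97, 10.03, 11.18 and 12.18 in AP and 7.99, 6.76, 7.97 and 9.42 in DP. NCL held 5.25 to 5.42 and Myo 5.32 to 5.66. AP, DP and the remaining populations did not overlap, and knockout mouse 2 was the highest in both AP and DP, as it was for Lalba. AP exceeded NCL by 5.76 (SE 0.34, 54.2-fold, adjusted p = 1.12e-07, limma) and DP by 3.06 (SE 0.34, 8.32-fold, adjusted p = 4.01e-05). DP exceeded NCL by 2.70 (SE 0.34, 6.52-fold, adjusted p = 0.00128), a call lost only without knockout mouse 2, at 2.39. The NCL levels were just above the lower quartile, so the folds over NCL are limited by signal near background. Myo minus NCL was 0.13 (SE 0.34), with an interval of -0.61 to 0.86. Both other probe sets of Btn1a1 rose from NCL to AP, by 2.43 (SE 0.32) and 2.52 (SE 0.34), but not from NCL to DP, with differences of 0.44 and 0.35; their NCL means of 4.64 and 4.11 were under the lower quartile.

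Mfge8 (lactadherin), a globule-membrane protein that also bridges dying cells to phagocytes, was high in every population. Its level was 12.50, 12.21, 12.42 and 12.60 in AP, 11.07, 10.65, 10.36 and 10.71 in DP, and 10.75, 11.19, 10.29 and 10.22 in Myo. NCL held 9.49, 9.5, 8.54 and 9.51, the lowest value being that of knockout mouse 1. AP was wholly above and NCL wholly below the others, while DP and Myo overlapped. AP exceeded DP by 1.73 (SE 0.19, 3.32-fold, adjusted p = 3.92e-05, limma), and DP exceeded NCL by 1.44 (SE 0.19, 2.71-fold, adjusted p = 0.00195), which was lost without mouse 1 of either genotype, at 1.33 and 1.28. Myo exceeded NCL by 1.35 (SE 0.19, adjusted p = 9.7e-05), and Myo minus DP was -0.09 (SE 0.19), with an interval of -0.51 to 0.33. Of the 9 genes, Csn3, Mfge8 and Glycam1 were those that passed as higher in Myo than in NCL on the probe sets used. The part of luminal cells in the Myo level of Mfge8 was not tested either.

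Set against the whole array, the count of these genes was above the background share in some comparisons and near it in others. In DP minus NCL, 3 of 9 rose (Csn3, Btn1a1 and Mfge8), where 0.755% of all genes rose and 0.795% passed in either direction. In AP minus NCL, 6 of 9 rose against 12.6% of all genes, where 28.5% passed in either direction, with a median difference of 1.74 against -0.03 over all genes. In AP minus DP, 4 of 9 rose (Csn1s1, Csn3, Btn1a1 and Mfge8) against 10.7% of all genes, where 22.0% passed in either direction, with medians of 1.23 and -0.01. In Myo minus AP, 7 of 9 passed against 36.5%; 6 of them were lower, against 18.3% of all genes, and Glycam1 was higher, with medians of -1.70 and 0.03. Among the 6, the Lalba difference of -1.70 was called in 9 of 20 leave-out fits: it was lost at -0.82 without the AP array of knockout mouse 2, and at -1.62 to -1.78 without either wild-type mouse, either knockout NCL array, either wild-type AP array or any 1 Myo array, and with array weights. The Csn1s2a difference was lost without knockout mouse 2, at -0.74. The remaining comparisons were near their backgrounds: 4 of 9 in Myo minus DP against 41.7%, 3 of 9 in Myo minus NCL (Csn3, Glycam1 and Mfge8, all higher) against 21.3% higher and 45.0% in either direction, and 5 of 9 in Myo minus the mean of the luminal populations against 48.0%. These comparisons share arrays and are not independent of each other. Csn1s1, Csn3 and Btn1a1 were the lower ones in Myo minus DP, where the Csn1s1 difference of -0.86 was called in 12 of 20 leave-out fits. It was -0.57 without wild-type mouse 1, -0.61 without its DP array, and -0.81 to -0.92 without any 1 Myo array or either knockout DP array, the other fits that lost the call. With array weights it did not pass either. The Myo minus DP calls of Csn3 and Btn1a1 were not seen on their dimmer probe sets, where the differences were -0.06 for Csn3 and -0.06 and -0.36 for Btn1a1. On the dimmer probe set of Csn3 its Myo minus NCL call was not seen either, at 0.12.

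**Figure D4:**
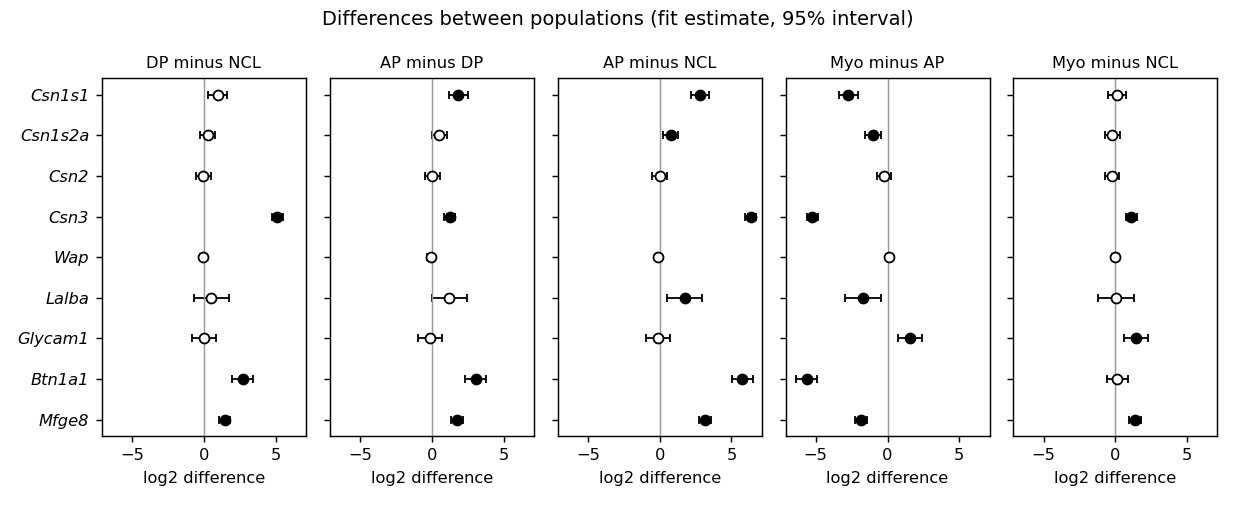
Log2 difference (horizontal axis) of each gene in 5 comparisons between populations, averaged over both genotypes; points are the limma estimates, bars their confidence intervals, and filled points passed at an adjusted p under 0.05. Csn3, Btn1a1 and Mfge8 are filled in the first 4 panels, and Wap and Csn2 are open in all 5.

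The knockout comparison asks whether loss of Cpeb2 altered these genes. In each population, 0 of 9 passed in limma's test, and the estimates farthest from 0 were Lalba in AP at 2.30, Csn1s1 in DP and in AP at -1.47 each, Btn1a1 in DP at 1.32 and Csn1s2a in DP at -1.23. The share of all genes that passed was 2.06% in NCL, 7.44% in DP, 0.620% in AP and 1.01% in Myo, and 10.2% for the mean of the 4 populations, where again 0 of 9 passed. At an unadjusted p under 0.05 the counts of the 9 were 1, 3, 3 and 1 in NCL, DP, AP and Myo and 4 for the mean. Of all 17097 genes, 2919, 4802, 1624 and 2434 were under it in these populations, and 4602 for the mean. The median knockout minus wild-type difference of the 9 genes was 0.05, -0.33, 0.02 and 0.05 in NCL, DP, AP and Myo, against 0.03, 0.08, 0.00 and -0.03 over all genes. An F test of whether the knockout effect differed between populations passed for 0 of 9 genes against 0.667% of all. Before adjustment 1 of the 9, Csn1s1, was under 0.05, as were 2872 of all 17097 genes.

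Csn1s1 was lower in both knockout arrays than in both wild-type arrays in DP and in AP, as its values above show. The difference was -1.47 in DP (SE 0.42, interval -2.40 to -0.54, adjusted p = 0.0553, limma) and -1.47 in AP (SE 0.42, interval -2.40 to -0.55, adjusted p = 0.199). In DP it passed in 4 of 20 leave-out fits: without wild-type mouse 2 or its DP array, at -1.98 each, and without either knockout AP array, at -1.47 each. Without the DP array of wild-type mouse 1, the one with high fibroblast markers, it was -0.96. In AP it passed in 1 fit, without the array of knockout mouse 2, at -2.35, and was -0.59 without that of knockout mouse 1. Both knockout DP arrays, at 4.21 and 4.35, were under the lower quartile, so the size of the DP difference is not fixed by these values. In NCL and Myo, where all arrays were under it, the differences were 0.13 and 0.15 (SE 0.42 each).

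Csn1s2a was lower in both knockout arrays than in both wild-type arrays in DP, with a difference of -1.23 (SE 0.35, interval -1.99 to -0.48, adjusted p = 0.0514, limma), and in NCL, with a difference of -0.89 (SE 0.35, adjusted p = 0.22). In AP the difference was -0.11 (SE 0.35), with an interval of -0.87 to 0.65. The DP difference passed at -1.23 once dim genes were left out of the test and in 5 of 20 leave-out fits, which were those without wild-type mouse 2 (-1.40) and without any 1 of the 4 AP arrays (-1.23 each). The next brightest probe set of Csn1s2a had a DP difference of -0.57 (SE 0.36). Averaged over populations, the differences of Csn1s1 and Csn1s2a were -0.67 (SE 0.22) and -0.54 (SE 0.18), each at an adjusted p of 0.0811, and both passed, with the same differences, once the mice were paired by their parents.

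Btn1a1 and Lalba had higher estimates in the knockout progenitors, and Mfge8 had lower ones in 3 of 4 populations; none passed. Btn1a1 was 1.32 higher in knockout DP (SE 0.49, adjusted p = 0.107, limma) and 1.18 higher in knockout AP (SE 0.49, adjusted p = 0.448), and wild-type mouse 2 held the lowest value in both. Its other probe sets gave 0.05 (SE 0.46) and 0.17 (SE 0.49) in DP, and 2.12 (SE 0.46, adjusted p = 0.0994) and 1.82 (SE 0.49, adjusted p = 0.201) in AP. Lalba was 2.30 higher in knockout AP (SE 0.82, interval 0.52 to 4.08, adjusted p = 0.33), a value that was 0.55 without the AP array of knockout mouse 2 and 4.05, then past the threshold, without that of knockout mouse 1. Csn3 differed by -0.34 in DP and 0.21 in AP (SE 0.25 each), and Wap by 0.32 in DP (SE 0.15, adjusted p = 0.183). Mfge8 differed by -0.72 in Myo (SE 0.28, adjusted p = 0.266), -0.47 in NCL, -0.33 in DP and 0.15 in AP, and by -0.34 on average (SE 0.15, adjusted p = 0.159). Glycam1 differed by 1.06 in Myo (SE 0.55, adjusted p = 0.411), which passed at 2.03 without wild-type mouse 1's array. Csn2 differed by -0.60 in DP and 0.57 in Myo (SE 0.34 each), neither of which passed.

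Other measures moved in ductal progenitors with genotype. The alveolar marker mean in DP was 9.54 and 8.89 in wild type and 8.35 and 8.77 in knockout. Of the 5 markers Kit and Elf5 passed as lower, 3 did not pass, and 2 had estimates above 0. Lif, which did not pass in DP, was 8.21 and 8.05 in wild type and 9.15 and 8.9 in knockout. The hormone-sensing marker mean was 10.80 and 10.89 in wild type against 11.49 and 11.46 in knockout, with Esr1 and Prom1 passing as higher of 5 measured, by 0.91 (SE 0.23) and 0.86 (SE 0.22). The fibroblast mean was 8.12 and 6.95 against 6.68 and 6.47. Signal of the 3' probe set of Gapdh over the middle one, a measure of RNA integrity, was 0.60 and 0.39 in wild-type DP against 0.15 and 0.12 in knockout DP, and for Actb 0.12 and 0.27 against 0.05 and 0.06. Their part in the DP differences of Csn1s1 and Csn1s2a was not tested.

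**Figure D5:**
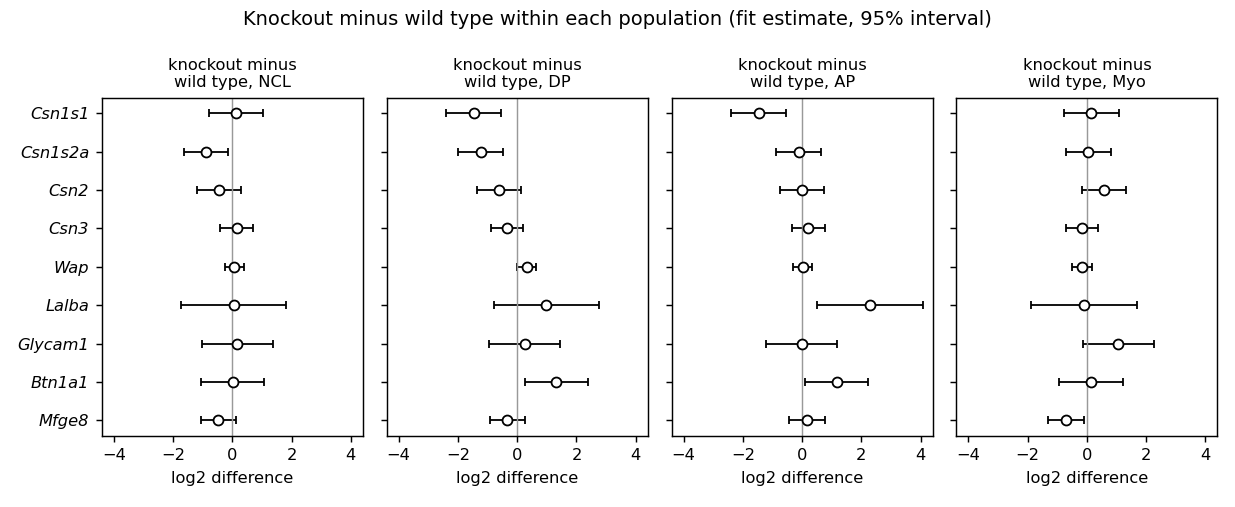
Log2 difference (horizontal axis), knockout minus wild type, of each gene in NCL, DP, AP and Myo; points are the limma estimates and bars their confidence intervals, with 2 mice per genotype. No point is filled, since none passed at an adjusted p under 0.05; the estimates farthest from 0 are Lalba in AP at 2.30 and Csn1s1 in DP and AP at -1.47.

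Counts for other genes of milk production stand against the 28.5% of all genes that passed in AP minus NCL and the 7.44% that passed in knockout DP. Of 13 measured genes for further milk proteins (15 listed), 7 rose and 2 fell from NCL to AP, with a median of 0.60 against -0.03 over all genes. Trf (transferrin) rose by 6.14 (SE 0.34), Ltf (lactoferrin) by 5.37 (SE 0.21) and Wfdc18 (a relative of Wap) by 5.31 (SE 0.26), while Tph1, which makes serotonin, fell by 3.71 (SE 0.44). Of 9 genes of the milk fat globule and droplet, 4 rose and 0 fell, with a median of 0.53: the mucins Muc15 by 5.44 (SE 0.14) and Muc1 by 3.08 (SE 0.21), the droplet coat protein Plin2 by 1.75 (SE 0.17) and Anxa1 by 0.53 (SE 0.13).

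Genes that make the fat and the lactose were split in direction, with counts not far from the 28.5% of all genes. Of 15 measured genes of milk fat synthesis (18 listed), 3 rose and 3 fell from NCL to AP, with a median of 0.16. Scd1, a fatty acid desaturase, rose by 1.32 (SE 0.19) and Me1 by 1.02 (SE 0.18), while the triglyceride-forming enzymes Dgat2 and Gpam fell by 2.87 (SE 0.22) and 1.83 (SE 0.12). Of 14 measured genes of lactose synthesis and ion transport (16 listed), 2 rose and 4 fell, with a median of -0.06. Ugp2 rose by 0.99 (SE 0.25), and Hk2, the casein kinase Fam20c and the zinc transporter Slc30a4 differed by -2.48 (SE 0.37), -1.27 (SE 0.18) and -0.87 (SE 0.15).

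Of 13 measured genes of prolactin and STAT5 signalling (14 listed, Prlr not analysed here), 6 rose and 3 fell from NCL to AP, with a median of 0.73. Elf5 rose by 4.94 (SE 0.25), Erbb4, a receptor that can activate STAT5, by 2.47 (SE 0.12), and the glucocorticoid receptor Nr3c1 by 2.16 (SE 0.17). Jak2 fell by 1.59 (SE 0.17). In knockout DP, where 7.44% of all genes passed, Elf5 and Nfib were the 2 of 13 that fell, by 1.61 (SE 0.36, adjusted p = 0.0263, limma) and 0.98 (SE 0.20, adjusted p = 0.0215). Also in knockout DP, Muc15 fell by 3.05 (SE 0.21, adjusted p = 8.91e-05), from 8.76 and 8.13 to 5.28 and 5.5, and Plin2 by 1.05 (SE 0.25, adjusted p = 0.0311). They were the 2 that passed of 9 genes of the milk fat globule and droplet. Among the 13 milk proteins outside the set, 2 passed in knockout DP. Wfdc18 fell by 1.39 (SE 0.38, adjusted p = 0.0482) and Cp (ceruloplasmin) by 1.38 (SE 0.29, adjusted p = 0.0225). In knockout NCL, 2 of these 13 passed as lower and 1 as higher. Cp went from 9.88 and 9.2 to 6.77 and 6.31, and Lcn2 from 10.33 and 10.54 to 8.07 and 7.87. Folr1 rose from 6.49 and 6.9 to 7.62 and 7.97. In knockout AP, Pigr of the milk proteins and Erbb4 of the prolactin and STAT5 genes passed as higher. For the mean of 4 populations, 3 of the 13 milk proteins passed as higher and 3 as lower. Muc15, Plin2 and Nfib also passed as lower for that mean. Of 15 genes of fat synthesis, Dgat2 passed as higher in knockout DP and Lpl as lower. Of 14 genes of lactose synthesis and ion transport, Hk1 passed as higher there. Dgat2 went from 10.3 and 9.66 to 11.68 and 11.04, and Hk1 from 9.82 and 10.77 to 11.46 and 11.49. Lpl went from 9.05 and 6.81 to 5.89 and 5.98. Each of these DP differences stood beside the marker and RNA measures of DP given above, whose part was not tested.

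Genes whose profile was most like that of the set are given as a description over 16 arrays, which share 4 mice. The mean of the 7 caseins and whey genes, each standardised, correlated best with AW011738 (Pearson's r = 0.862), then with Cdc42se1 (0.860), the monocarboxylate transporter Slc5a8 (0.858), Gabrg3 (0.857) and the gap junction gene Gjb2 (0.854). That mean joins unlike profiles. With Csn1s1, Csn3 correlated at 0.78, Csn1s2a at 0.75, Lalba at 0.45 and Csn2 at 0.28, but Glycam1 at -0.37 and Wap at -0.53. Btn1a1 was most like the proton pump subunit Atp6v1b1 (0.984), the choline transporter Slc5a7 (0.975) and Ntn1 (0.965). Mfge8 was most like the tight junction gene Cldn1 (0.977), Lurap1l (0.964) and Otud1 (0.955). Among the members, Csn3 and Btn1a1 had the highest correlation, 0.91, and Csn2 on its brightest probe set and Wap the lowest, -0.76.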

How the data were processed

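Values are log2 expression per probe set on Affymetrix mouse arrays as deposited by the authors; RMA and limma are named in the submitters' processing notes, without role or version. Background correction and filters: not given in the sources used here. Amplification started from 15 ng of RNA, and 8 µg of cDNA was labelled, per the labels' protocols. Array medians were 6.35 to 6.40, and replicate arrays correlated at 0.975 to 0.991.

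Probe sets were named through the supplied annotation: 28898 had 1 symbol, 551 several and 15588 none, 104 were controls, and no symbol of several was used. All 16 arrays entered a limma fit (version 3.58.1, R 4.3.3, statmod 1.5.0) with 8 group means, the mouse as random block (consensus correlation 0.0383) and eBayes with trend; p-values were Benjamini-Hochberg adjusted over 17097 genes and called under 0.05. Population differences average both genotypes. With 2 mice per genotype and population, the number of arrays limits the precision. The labels pair the mice by parents; deviations of the 2 pairs correlated at -0.08 to 0.07 in the 4 populations. The code was tested on simulated data.

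Members and lists were chosen with earlier results of these data known. All members are named; in other lists, up to 4 called genes with the largest differences per comparison. Alternatives were no mouse block, the mouse as fixed block (population comparisons), the parent pair as block, no trend, quantile normalization, dim genes left out (14754 kept), all probe sets, array weights, other probe sets and 20 leave-out fits.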

Additional observations from a re-analysis of the deposited data

Results flagged for a closer look

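Csn1s1 and Csn3 are listed here because their knockout and wild-type arrays separated in opposite directions in different populations. The share of all genes that did so was not counted, and 2 arrays against 2 can separate by chance. For Csn1s1, both knockout arrays lay on one side of both wild-type arrays in all 4 populations, but not on the same side. Knockout minus wild type was -1.47 in DP and -1.47 in AP, and 0.13 in NCL and 0.15 in Myo, where the gene lay below the arrays' lower quartile, as it did in both knockout DP arrays. Pairs of these populations were not tested against each other; the limma F test over all 4 gave an adjusted p of 0.207. For Csn3, both knockout arrays were below both wild-type arrays in DP, with a difference of -0.34, and above them in AP, with a difference of 0.21. This difference between DP and AP was not tested as a pair, and the F test over all 4 populations gave an adjusted p of 0.647. On the dimmer probe set of Csn3, which was above the lower quartile in 2 of 16 arrays, the differences were -0.20 in DP (adjusted p = 0.0887) and 0.34 in AP (adjusted p = 0.0688), again without overlap, and the limma F test gave an adjusted p of 0.0779.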

How the results depend on the processing

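No called difference changed direction under any alternative run, and the counts of called genes between populations stayed within 1.5 times of those reported under every alternative that kept all arrays and the same probe sets. On the dimmer probe sets, the DP minus NCL calls of Csn3 and Btn1a1 were not seen, at 0.18 for Csn3 and 0.44 and 0.35 for Btn1a1. Their Myo minus DP calls and the Myo minus NCL call of Csn3 were not seen there either. The parent pair as replicate block left all counts as they were except the mean knockout effect, where 2 genes passed, Csn1s1 and Csn1s2a, and none had without it. With dim genes left out, 1 gene passed in the knockout comparison of DP, Csn1s2a. Leaving out 1 mouse or 1 array gave 0 to 4 called genes for knockout against wild type in DP, 0 to 1 in AP, 0 to 1 in Myo, 0 to 2 for the mean of 4 populations and 0 to 1 for the F test, each against 0 with all arrays. It gave 2 to 5 for Myo minus DP, against 4, the lowest being without wild-type mouse 1. Fits that leave 1 array in a group assume that it varies like the others. Signal near the lower quartile limits Csn1s1, Glycam1 and the dim probe sets of Csn1s2a, Csn2, Csn3 and Btn1a1 in the populations where they lay there. It also limits the folds of Btn1a1 over NCL. On the probe sets used, all values of Csn1s2a and of Wap lay inside the range of the nonspecific control probe sets, which limits their differences too.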

Other observations

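Knockout mouse 2 held the highest AP and DP values of Lalba (10.71 and 7.98) and of Btn1a1 (12.18 and 9.42), while its Csn1s1 values there (7.02 and 4.35) were not the highest. Wild-type mouse 1 held the highest AP and DP values of Csn2 on its second probe set (8.67 and 6.94) and, in DP, of Csn1s1 (6.26) and Csn1s2a (7.31). These animals were singled out after their values were seen, and no test was made of them.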
